A study of Mus musculus with 202 samples.

Results

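The mitochondrial ribosomal protein genes were followed through sorted single cells of a tumour line from mouse pancreas. The members are the rows of the expression table whose gene symbol starts with Mrpl or Mrps and a number. There are 80 such rows among 28987 genes. Of these, 49 encode proteins of the large subunit, 26 encode proteins of the small subunit, 4 are pseudogenes (Mrpl23-ps1, Mrpl48-ps, Mrps36-ps1 and Mrps36-ps2), and Mrps36 encodes a subunit of the ketoglutarate dehydrogenase complex in spite of its name. Mrps18a and Mrps30 are counted with the large subunit, where their proteins sit.

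Mitochondria keep a ribosome of their own, which makes the few membrane proteins of the respiratory chain and ATP synthase that mitochondrial DNA still encodes. Its RNAs come from the mitochondrial genome, whereas all of its proteins are encoded in the nucleus, made in the cytosol and imported. Some of these proteins have a counterpart in the bacterial ribosome and others are particular to mitochondria.

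The cells were KPC pancreatic ductal adenocarcinoma cells of a male mouse, taken from a liver metastasis and grown for 4 to 6 passages. Both groups come from this 1 line and were separated by antibody staining and flow sorting, into cells negative for E-cadherin (Ecad-) and cells positive for it (Ecad+). No treatment or allele beyond the KPC background sets the groups apart. Each library is 1 cell captured on a microfluidic chip, with 98 Ecad- and 104 Ecad+ libraries in 3 sets marked by a suffix of the library name. The labels do not explain the suffix.

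No label names separate cultures, so each group is 1 sample. No test was made and no p-value is given, and SDs describe the spread between cells. Pairs of libraries that correlated at 0.984 or more over all genes were averaged as 1 cell (5 pairs, against 0.939 for the next closest pair), which left 97 Ecad- and 100 Ecad+ cells. Levels are mean TPM over cells, a unit scaled to transcript length. A pseudocount of 1 TPM was added to both means, and the ratio is the log2 of Ecad- over Ecad+. Over the 7227 genes above an expression floor (a mean of at least 5 TPM, and above 0 in at least 10% of cells) the median ratio was 0.31, and 0.16, 0.44 and 0.26 in library sets 1, 2 and 3. Values called relative are ratios minus this median. Ratios not called relative, and counts past 2-fold, are uncentred. With each cell rescaled without its mitochondrially encoded mRNAs the all-gene median was -0.0006. Read depth is unknown, and the median number of genes above 0 was 8694 in Ecad- cells and 10338 in Ecad+ cells. Cdh1, the gene of E-cadherin, averaged 16.1 TPM in Ecad- cells and 37.9 TPM in Ecad+ cells. The 13 mitochondrially encoded mRNAs took less than 1% of the TPM of some cells, called low-share cells here, which were 40 of the 97 Ecad- cells but only 1 of the 100 Ecad+ cells. Keratins and other epithelial markers (6 of 6) were present and lower in Ecad- cells. Ptprc, the common leukocyte gene, was listed at 0 in all cells, while the macrophage marker Cd68 averaged 30.0 TPM in Ecad- cells and 6.35 TPM in Ecad+ cells. Of 7 immune markers Cd68 alone passed the floor, and 3 were at 0 in all cells. All 7 together summed to 30.8 TPM in Ecad- cells and 6.46 TPM in Ecad+ cells, nearly all of it Cd68. The part of Cd68-bearing cells in the member values was not tested.

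The genes of the mitochondrial ribosome as a group followed the rest of the transcriptome. The floor was passed by 77 of the 80 members. Their median ratio was 0.37, or 0.07 relative to all genes. In library sets 1, 2 and 3 the relative median was 0.08, 0.06 and 0.03. The relative values of the members ran from -0.74 to 0.78, with quartiles at -0.20 and 0.38. The quartiles over all genes were -0.42 and 0.41.

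Few members had ratios past 2-fold or stood far from the all-gene median. The 2-fold counts are uncentred. A gene at the all-gene median of 0.31 is therefore nearer to the higher limit than to the lower one. Ratios of 2-fold or more were reached by 5 of 77 members in the higher direction (6.49%), against 14.2% of all genes over the floor. In the lower direction the count was 0 of 77, against 4.14% of all genes. Among genes averaging at least 50 TPM, 5 of 52 members were 2-fold or more higher (9.62%), against 13.8%, and 0 of 52 were 2-fold or more lower, against 4.34%. Only 10 of 77 members lay outside 1.5-fold around the all-gene median (13.0%), against 35.3% of all genes. Above the median in each of the 3 library sets were 24 of 77 members (31.2%), against 29.5% of all genes. Below it in each set were 17 of 77 (22.1%), against 29.5% of all genes. The first of these shares is near its background.

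**Figure D1:**
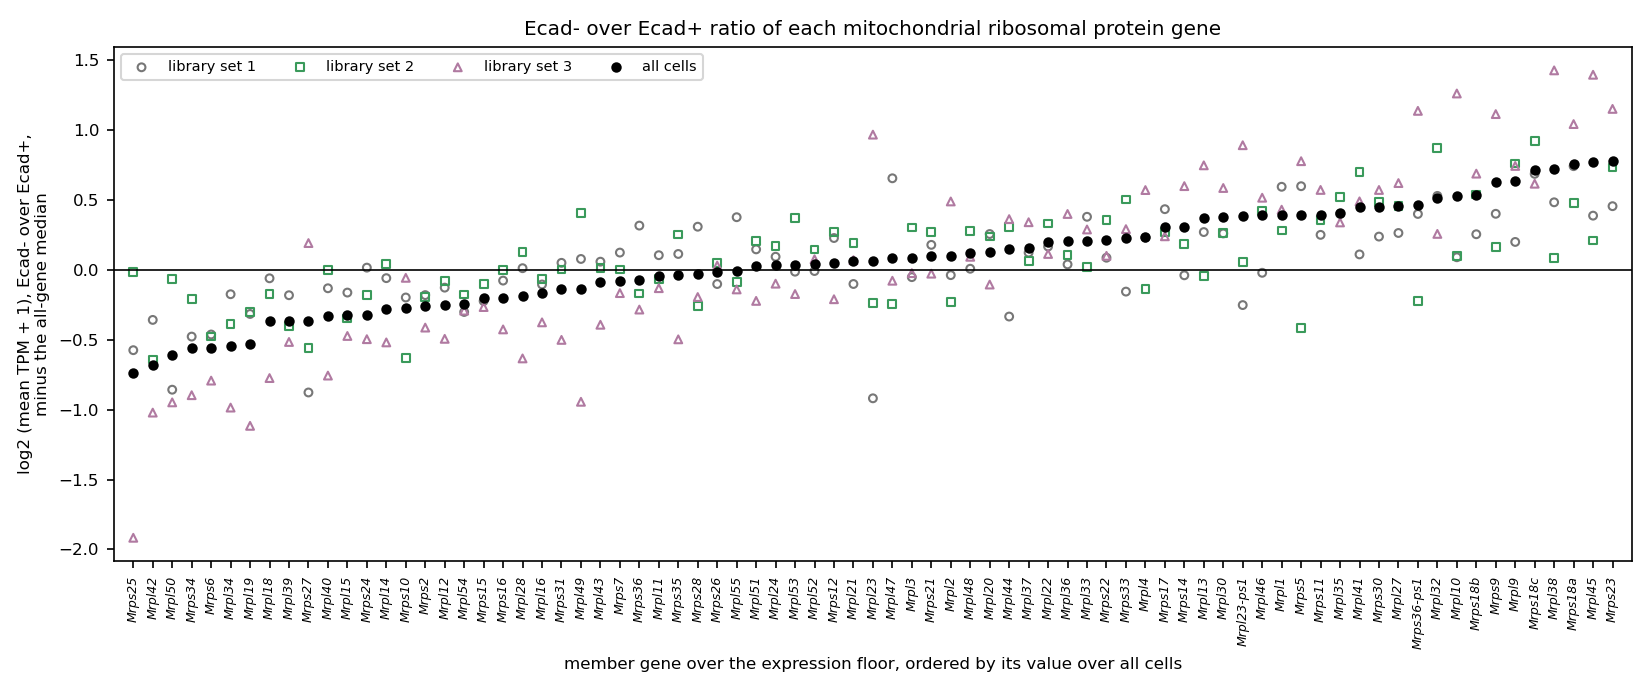
Log2 ratio of Ecad- over Ecad+ (y axis), relative to the all-gene median, for each of the 77 members over the floor (x axis, ordered by the value over all cells). Filled points use all cells and open symbols 1 library set each. Values over all cells run from -0.74 for Mrps25 to 0.78 for Mrps23, and the sets scatter around them by up to more than 1 unit, as for Mrps25 in set 3.

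The members that leaned furthest towards Ecad- cells were Mrps23, Mrpl45, Mrps18a, Mrpl38 and Mrps18c, and all 5 lay above the all-gene median in each library set. Mrps23 (chromosome 11, 88204388 to 88211507 in mm10) encodes a small subunit protein that bacteria lack. Its lowest, median and highest values were 0, 89.0 and 712 TPM in Ecad- cells, against 0, 56.8 and 208 TPM in Ecad+ cells. The mean of Mrps23 was 130 ± 139 TPM in Ecad- cells and 60.8 ± 36.3 TPM in Ecad+ cells (SD, n = 97 and 100 cells), a ratio of 1.09. The 2 groups of cells overlapped widely, and Ecad- cells alone reached values above 208 TPM.

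Mrpl45 (chromosome 11, 97315716 to 97329920) encodes a large subunit protein near the exit of the peptide tunnel, where the ribosome meets the inner membrane. It averaged 117 ± 199 TPM in Ecad- cells and 55.1 ± 26.7 TPM in Ecad+ cells, a ratio of 1.08. Its medians lay much closer, at 55.1 TPM in Ecad- cells and 51.9 TPM in Ecad+ cells. The highest Ecad- cell reached 1206 TPM, and 20 of 97 Ecad- cells exceeded the highest Ecad+ cell at 137 TPM. The ratio was 0.63 with a 10% trimmed mean and 0.14 between means of log values. Mrpl38, another large subunit protein without a bacterial counterpart, averaged 82.0 ± 88.4 TPM in Ecad- cells and 39.6 ± 28.7 TPM in Ecad+ cells, a ratio of 1.03.

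The Mrps18 genes are a family of 3 paralogues that descend from 1 bacterial ribosomal protein. The protein of Mrps18a sits in the large subunit and those of Mrps18b and Mrps18c sit in the small one. The genes lie apart, with Mrps18a at 46110986 to 46128910 and Mrps18b at 35910379 to 35916389 on chromosome 17, and Mrps18c at 100798627 to 100804471 on chromosome 5. All 3 leaned towards Ecad- cells in each library set. Mrps18c was the most abundant member of all. Its lowest, median and highest values were 2.10, 852 and 6612 TPM in Ecad- cells, against 46.2, 652 and 2344 TPM in Ecad+ cells, and its mean of 1444 TPM in Ecad- cells compared with 711 TPM in Ecad+ cells, a ratio of 1.02. Mrps18a averaged 230 ± 209 TPM in Ecad- cells and 109 ± 47.8 TPM in Ecad+ cells, a ratio of 1.07 that was 0.90, 0.92 and 1.31 in sets 1, 2 and 3. Mrps18b averaged 335 ± 275 TPM in Ecad- cells and 186 ± 107 TPM in Ecad+ cells, a ratio of 0.85. Each gene still overlapped between the groups, since the medians of Ecad- cells lay inside the range of Ecad+ cells. Mrps18b has a processed pseudogene copy, Gm13552 (99.8% identical), at 48.4 TPM in Ecad- cells and 27.6 TPM in Ecad+ cells. With the copy added the ratio was 0.84.

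Other members on this side were Mrpl9 (66.5 TPM in Ecad- cells and 34.2 TPM in Ecad+ cells, a ratio of 0.94) and Mrps9 (34.4 TPM in Ecad- cells and 17.5 TPM in Ecad+ cells, 0.93), which both have bacterial counterparts. Mrps30 and Mrpl41 are large subunit proteins that were also described in cell death. Mrps30 averaged 41.5 TPM in Ecad- cells and 24.1 TPM in Ecad+ cells, and Mrpl41 averaged 83.0 TPM in Ecad- cells and 48.6 TPM in Ecad+ cells, both at a ratio of 0.76. The means of Mrpl41 differed while its medians hardly did, at 45.7 TPM in Ecad- cells and 46.0 TPM in Ecad+ cells, and the difference between means of log values was -0.17. For Mrps9 that difference was 0.14.

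On the other side lay Mrps25, Mrpl42, Mrpl50, Mrps34, Mrps6, Mrpl34, Mrpl19 and Mrpl18, all below the all-gene median in each library set. Mrps25 (chromosome 6, 92169525 to 92184033), a small subunit protein that bacteria lack, had lowest, median and highest values of 0, 61.8 and 376 TPM in Ecad- cells, against 7.72, 97.4 and 276 TPM in Ecad+ cells. The mean of Mrps25 was 76.9 ± 68.3 TPM in Ecad- cells and 104 ± 50.4 TPM in Ecad+ cells, a ratio of -0.43. The library sets disagreed on it, with ratios of -0.42, 0.43 and -1.65 in sets 1, 2 and 3, and the ratio was 0.04 with set 3 left out. Mrps25 shares 4590 exon bases with Nr2c2 on the opposite strand, and these libraries do not mark strand.

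Mrpl42 (chromosome 10, 95480805 to 95501940), a large subunit protein, averaged 216 ± 158 TPM in Ecad- cells and 281 ± 116 TPM in Ecad+ cells, a ratio of -0.38 that was negative in each set (-0.20, -0.20 and -0.76). Its medians were 199 TPM in Ecad- cells and 262 TPM in Ecad+ cells, and the quartiles 105 and 323 TPM in Ecad- cells and 191 and 356 TPM in Ecad+ cells. The middle of the distribution thus lay lower, while the highest Ecad- cells (2 of 97) exceeded the highest Ecad+ cell, at 823 TPM against 623 TPM. Mrpl50 had 34.4 TPM in Ecad- cells and 42.7 TPM in Ecad+ cells (-0.30). Mrps34, which shares exon bases with Mapk8ip3 (1309, opposite strand) and Nme3 (763, same strand), had 56.6 TPM in Ecad- cells and 67.7 TPM in Ecad+ cells (-0.25). Members with a bacterial counterpart on this side included Mrps6 (175 TPM in Ecad- cells, 209 TPM in Ecad+ cells, -0.25), Mrpl34 (101 TPM in Ecad- cells, 120 TPM in Ecad+ cells, -0.24) and Mrpl19 (27.1 TPM in Ecad- cells, 31.9 TPM in Ecad+ cells, -0.23). Mrpl19 shares 1962 exon bases with Gcfc2 on the opposite strand. None of these 8 ratios reached 1.5-fold, and except for Mrpl42 and Mrps6 they were above 0 in set 2, while staying below that set's all-gene median. With set 3 left out the ratio of Mrpl34 was 0.04 and that of Mrpl18 0.18.

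**Figure D2:**
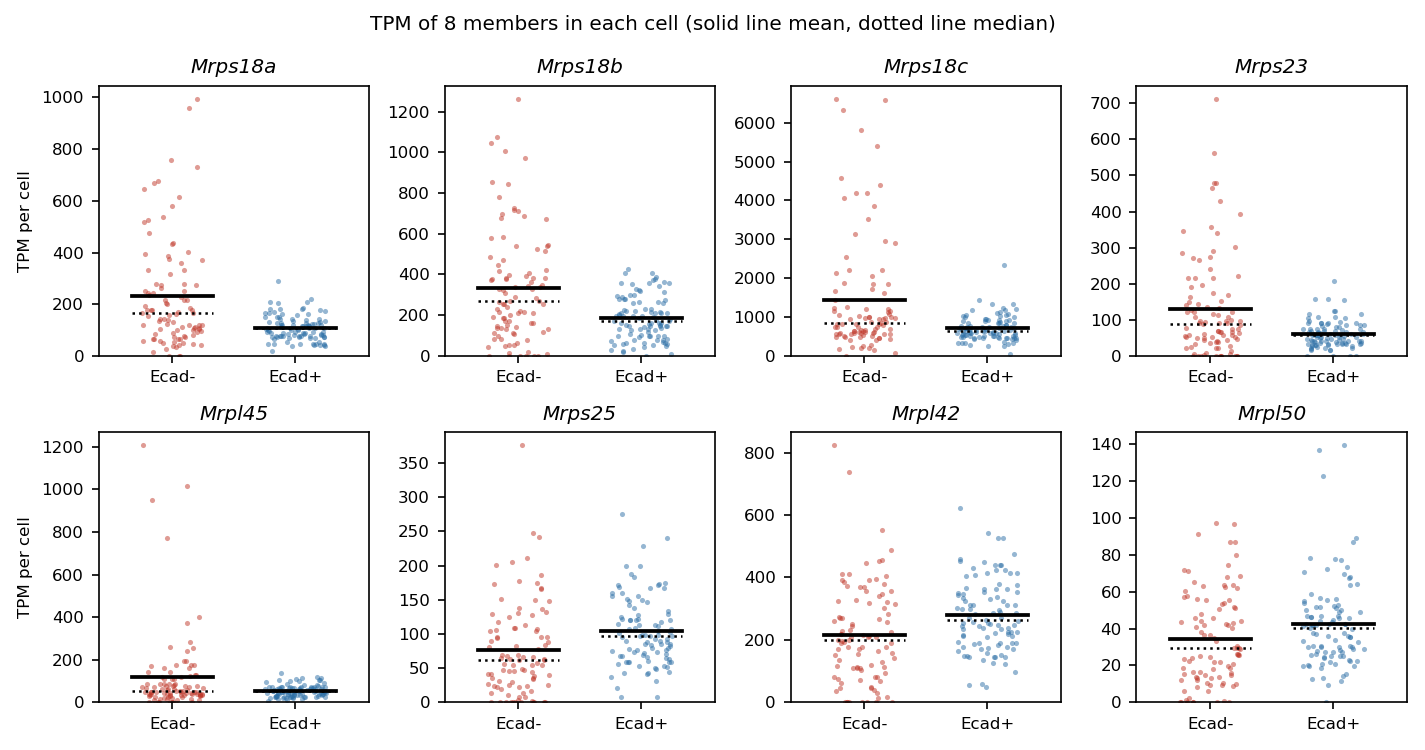
TPM in each cell (y axis, linear, 1 point a cell) for 8 members in 97 Ecad- cells and 100 Ecad+ cells. In Mrps18a, Mrps18c, Mrps23 and Mrpl45 the mean (solid line) of Ecad- cells lies above the median (dotted line), pulled by cells of high level, whereas Mrpl42 has a lower mean and median in Ecad- cells.

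The abundant members were spread over both subunits. After Mrps18c came Mrpl2, whose bacterial counterpart lies beside the catalytic centre, at 858 ± 785 TPM in Ecad- cells and 646 ± 330 TPM in Ecad+ cells (0.41). Mrps21, a small subunit protein, followed at 781 ± 411 TPM in Ecad- cells and 589 ± 261 TPM in Ecad+ cells (0.41). Mrpl18, a large subunit protein, had 655 TPM in Ecad- cells and 683 TPM in Ecad+ cells (-0.06). These 4 genes together held 32.1% of the summed member level in Ecad- cells and 29.9% in Ecad+ cells. Mrpl28 (325 TPM in Ecad- cells, 299 TPM in Ecad+ cells, 0.12), Mrps33 (348 TPM in Ecad- cells, 240 TPM in Ecad+ cells, 0.53) and Mrpl33 (317 TPM in Ecad- cells, 222 TPM in Ecad+ cells, 0.52) completed the 8 most abundant along with Mrps18b. In Ecad+ cells Mrpl18 stood above Mrpl2 and Mrps21, by less than the SD of any of these genes. Mrpl12, which forms the flexible stalk of the large subunit and also binds the mitochondrial RNA polymerase, had 80.0 TPM in Ecad- cells and 76.9 TPM in Ecad+ cells (0.06). Mrps36 had 98.8 TPM in Ecad- cells and 84.0 TPM in Ecad+ cells (0.23).

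The 3 members under the floor were Mrpl17 (3.61 TPM in Ecad- cells, 4.83 TPM in Ecad+ cells), Mrps36-ps2 (1.74 TPM in Ecad- cells, 2.38 TPM in Ecad+ cells) and Mrpl48-ps (0.0412 TPM in Ecad- cells, 0.0187 TPM in Ecad+ cells). Mrpl17 was low in level but not in breadth, with 90.7% of Ecad- cells above 0 (Clopper-Pearson 95% interval 83.1% to 95.7%) and all 100 Ecad+ cells (96.4% to 100%). These intervals cover counting error only. The cells of a group are 1 sample and not replicates, so the intervals do not compare the groups. Detection was lower in Ecad- cells in general, with a median of 78.8% of the genes over the floor above 0, against 92.4% in Ecad+ cells. The pseudogene Mrpl23-ps1 exceeded its parent gene. It averaged 108 TPM in Ecad- cells and 66.3 TPM in Ecad+ cells, against 14.3 TPM in Ecad- cells and 10.8 TPM in Ecad+ cells for Mrpl23. The transcripts are 100% identical over 540 bases, so the division of reads between them is uncertain. Their summed level was 122 TPM in Ecad- cells and 77.1 TPM in Ecad+ cells, a ratio of 0.65, against 0.37 for Mrpl23 alone.

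The medians of both subunits, and of both kinds of ancestry, lay close together. The relative median was 0.08 over 48 large subunit members and -0.02 over 26 small subunit members. Above the all-gene median were 31 large and 12 small subunit members, and below it 17 large and 14 small subunit members. Members with a bacterial counterpart had a relative median of 0.09 (n = 42) and members particular to mitochondria one of 0.03 (n = 32). The summed level of the large over the small subunit had a median of 1.33 in Ecad- cells and 1.43 in Ecad+ cells. Proteins of the same ribosome that carry no Mrp number were listed together with the insertase Oxa1l, which binds it. This list of 7 genes gave a mixed picture, with 4 above and 3 below the all-gene median. Chchd1 (168 TPM in Ecad- cells, 104 TPM in Ecad+ cells, 0.69) and Dap3 (146 TPM in Ecad- cells, 96.6 TPM in Ecad+ cells, 0.60), both of the small subunit, lay above the median. Ptcd3, also of the small subunit, lay below it (71.0 TPM in Ecad- cells, 73.8 TPM in Ecad+ cells, -0.06). Ict1, a large subunit protein that releases stalled chains, had a ratio of 0.44, Gadd45gip1 of the large subunit 0.37 and Aurkaip1 of the small subunit 0.14. The lowest ratio of this list, -0.30, belonged to Oxa1l, the inner membrane insertase that binds the ribosome (5.32 TPM in Ecad- cells, 6.76 TPM in Ecad+ cells).

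The higher ratios at the top of the list went with the low-share cells. Without these cells the 77 members had a relative median of 0.01, and 1 of them was 2-fold or more higher (1.3%), against 4.94% of all genes, while 0 were 2-fold or more lower, against 3.0%. That member was the pseudogene Mrps36-ps1, with a mean of only 6.77 TPM in Ecad- cells and 3.55 TPM in Ecad+ cells over all cells. It was also the only member outside 1.5-fold around the all-gene median (1.3%), against 23.1% of all genes, with Mrpl34 just inside at a relative -0.58. The transcripts of Mrps36-ps1 and Mrps36 are 99.3% identical over 306 bases, so the division of reads between them is uncertain. With 3 listed pseudogene copies added, Mrps36 had a ratio of 0.25 over all cells. The ratio of Mrpl45 was 0.07 without the low-share cells, that of Mrps18a 0.21, that of Mrps23 0.33, that of Mrps18b 0.34 and that of Mrps18c 0.39. Mrpl38 and Mrps9 had a ratio of 0.66 each and Mrps30 one of 0.64, against 1.03, 0.93 and 0.76 over all cells. On the other side Mrpl42 stood at -0.32, Mrps25 at -0.22, Mrpl34 at -0.44 and Mrpl18 at -0.34. Over all cells these were -0.38, -0.43, -0.24 and -0.06. All these ratios are uncentred, and the all-gene median was 0.14 without the low-share cells and 0.31 over all cells.

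**Figure D3:**
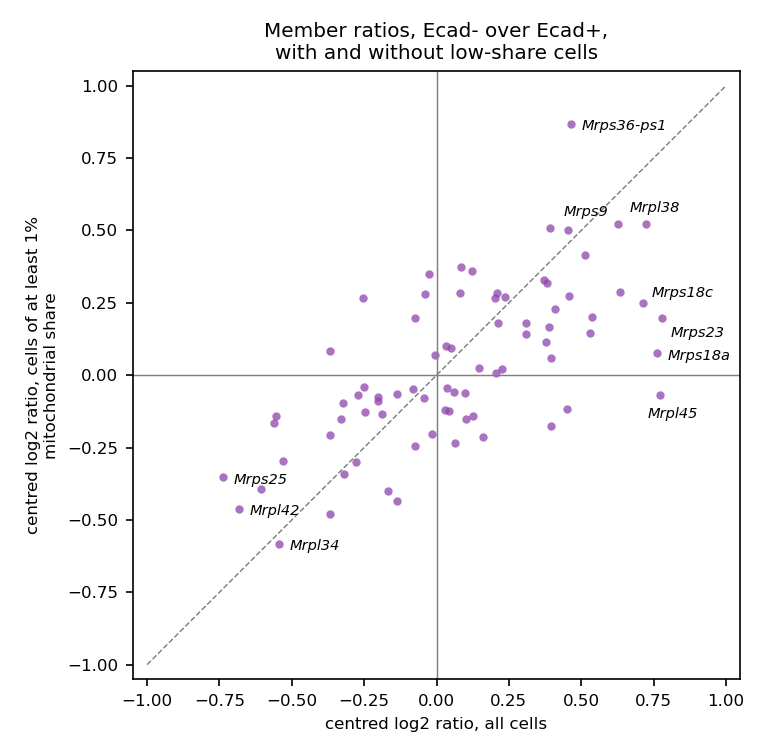
Ratio of Ecad- over Ecad+ relative to the all-gene median for the 77 members, over all cells (x axis) and over cells with at least 1% of TPM in mitochondrially encoded mRNA (y axis), both on a log2 scale. The dashed line marks equal values. Mrpl45, Mrps18a, Mrps18c and Mrps23 sit far below it, Mrpl38 and Mrps9 near it, and Mrps36-ps1 above it.

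The low-share cells were also set beside the other Ecad- cells. These are the cells left out above, so for the genes named there this restates the drop and is no second observation. Here each cell was rescaled to the same total without the mitochondrially encoded mRNAs, so that the share of those mRNAs does not move the others. Mrpl45 averaged a rescaled 212 TPM in the 40 low-share Ecad- cells, 79.9 in the other 57 Ecad- cells and 83.7 in the 99 Ecad+ cells that were not low in share. Mrps18a averaged 395, 173 and 165 rescaled TPM and Mrps23 217, 103 and 90.6 in the same 3 sets of cells. The other Ecad- cells thus lay close to Ecad+ cells for these 3 genes. Mrps6 lay the other way, with 137 rescaled TPM in low-share Ecad- cells, 288 in other Ecad- cells and 314 in Ecad+ cells, as did Mrps25 with 60.9, 126 and 158, and Mrps34 with 45.3, 94.3 and 100.1. In all, 3 of 77 members were 2-fold or more higher in low-share than in other Ecad- cells (3.9%), against 8.73% of all genes, and 6 were 2-fold or more lower (7.79%), against 12.2%. Between the other Ecad- cells and the Ecad+ cells 0 of 77 members passed 2-fold in either direction, against 3.6% of all genes higher and 4.21% lower. The cells were divided by a measured value, so these figures describe cells and are not a contrast of the design. Whether RNA quality goes with the low share was not tested.

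In single cells the summed member level was steady in Ecad+ cells and spread out in Ecad- cells. As a share of TPM outside mitochondrially encoded mRNAs it was 1.41% ± 0.353 in Ecad- cells and 1.34% ± 0.161 in Ecad+ cells (SD over 97 and 100 cells). The lowest, median and highest shares were 0.373%, 1.39% and 2.24% in Ecad- cells, against 0.846%, 1.35% and 1.72% in Ecad+ cells. The log2 ratio of the mean shares was 0.07, and 0.09, 0.14 and 0.02 in library sets 1, 2 and 3. The means thus differed by less than the spread of either group, and both tails of the Ecad- cells passed beyond the Ecad+ cells. The wider spread was not particular to the members. The share of cytosolic ribosomal protein genes was 7.95% ± 2.79 in Ecad- cells and 7.16% ± 1.33 in Ecad+ cells. The cell at 0.373% had 4168 genes above 0, the lowest number of any cell, and 34 members above 0. The median number of members above 0 was 73 of 77 in Ecad- cells and 76.5 in Ecad+ cells. Of all genes over the floor, a median of 78.8% were above 0 in Ecad- cells and 92.4% in Ecad+ cells.

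The median share of members was highest in the Ecad- cells with the lowest mitochondrial share, but not once the 4 most abundant members were left out. In Ecad- cells its median was 1.54% in the 40 cells under 1% mitochondrial share, 1.29% in 9 cells from 1% to 10%, 1.38% in 26 cells from 10% to 30% and 1.27% in 22 cells above 30%. Without Mrps18c, Mrpl2, Mrps21 and Mrpl18, an alternative chosen after seeing the data, these medians were 0.992%, 0.906%, 0.998% and 0.891% from the lowest to the highest mitochondrial share. In Ecad+ cells it was 1.42% in the 1 low-share cell and had a median of 1.19% in 2 cells from 1% to 10%, 1.40% in 46 cells from 10% to 30% and 1.29% in 51 cells above 30%. Within library set 1 the median was 1.65% in 6 low-share Ecad- cells and 1.31% in 27 others, in set 2 it was 1.67% in 12 and 1.37% in 20, and in set 3 it was 1.41% in 22 and 1.32% in 11. The direction was the same in each set. Across cells, which share 1 culture label and differ in depth, Pearson's r between the 2 shares was -0.23 in Ecad- cells (n = 97), -0.03 in Ecad- cells without the low-share cells (n = 57) and -0.17 in Ecad+ cells (n = 100). Spearman's rho was -0.33, -0.08 and -0.22 in the same order. Little of the relation in Ecad- cells was left without the low-share cells, over fewer cells. What it rests on was not tested.

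**Figure D4:**
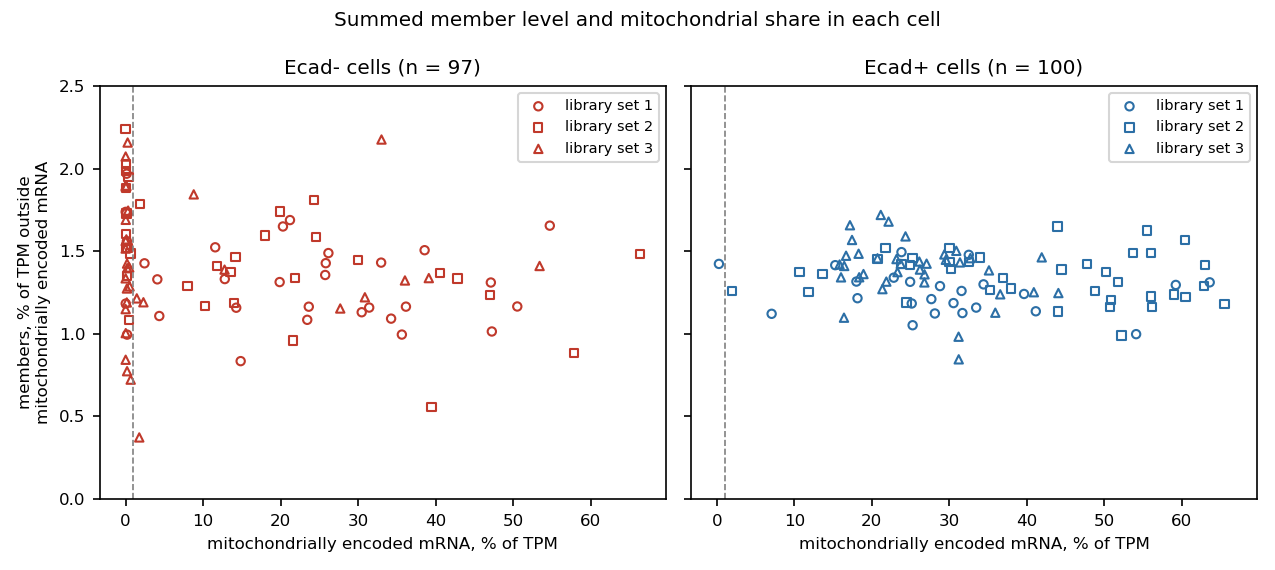
Summed level of the members as a percentage of TPM outside mitochondrially encoded mRNA (y axis) against the percentage of TPM in mitochondrially encoded mRNA (x axis), 1 symbol a cell, with Ecad- cells on the left and Ecad+ cells on the right. A cell averaged from a pair of libraries is drawn in 1 of its sets. The dashed line is at 1%. Ecad- cells reach from 0.373% to 2.24% and Ecad+ cells from 0.846% to 1.72%.

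The mRNAs that this ribosome translates differed from its protein genes. All 13 mitochondrially encoded mRNAs lay below the all-gene median in each library set, with a relative median of -1.41, and -0.63, -1.53 and -2.17 in sets 1, 2 and 3. For example mt-Co1, a catalytic subunit of cytochrome c oxidase, averaged 2950 TPM in Ecad- cells and 7124 TPM in Ecad+ cells (-1.27), and mt-Cytb, of the cytochrome bc1 complex, had a ratio of -1.45. Without the low-share cells, which were chosen on these very genes, the relative median was -0.50. The mitochondrial ribosomal RNAs were not analysed here. The genes of the cytosolic ribosome, another large protein family, had a relative median of 0.11 (80 over the floor), with 0.10, -0.12 and 0.27 in the 3 sets.

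Genes that act with the mitochondrial ribosome were set beside its proteins. Of 21 assembly factors over the floor 13 lay above and 8 below the all-gene median, with quartiles at -0.17 and 0.39. Among them 3 were 2-fold or more higher (14.3%), a share near that of all genes (14.2%). These were Gtpbp10, a GTPase of large subunit assembly (34.6 TPM in Ecad- cells, 12.2 TPM in Ecad+ cells, 1.43), Mrm3, which methylates the large ribosomal RNA (18.8 TPM in Ecad- cells, 6.88 TPM in Ecad+ cells, 1.33), and Ngrn, which binds that RNA (30.2 TPM in Ecad- cells, 13.2 TPM in Ecad+ cells, 1.14). Of 11 translation factors 1 lay above and 10 below the median, the first being the initiation factor Mtif2 (37.3 TPM in Ecad- cells, 22.4 TPM in Ecad+ cells, 0.71). Below the median in each library set were 4 of the 11 (36.4%), against 29.5% of all genes. Past 2-fold were 0 of 11 in either direction, against 14.2% of all genes higher and 4.14% lower. The peptide deformylase Pdf had 10.5 TPM in Ecad- cells and 15.3 TPM in Ecad+ cells (-0.50). Of 11 genes that charge mitochondrial tRNAs 4 lay above and 7 below, and Lars2, the leucyl-tRNA synthetase, was the 1 of 11 past 2-fold (9.09%, against 14.2% of all genes; 361 TPM in Ecad- cells, 167 TPM in Ecad+ cells, 1.11). It held a ratio of 1.00, 1.00 and 1.17 in the 3 sets and 0.96 without the low-share cells. Of 24 protein import genes 15 lay above and 9 below, with Timm10, a chaperone of the intermembrane space (162 TPM in Ecad- cells, 58.6 TPM in Ecad+ cells, 1.45), and Hspa9, the import motor of the matrix (253 TPM in Ecad- cells, 103 TPM in Ecad+ cells, 1.29), at the top. Among the 24 import genes 3 were 2-fold or more higher (12.5%), a share near that of all genes (14.2%). Tomm40, the pore of the outer membrane, had a ratio of -0.61.

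**Figure D5:**
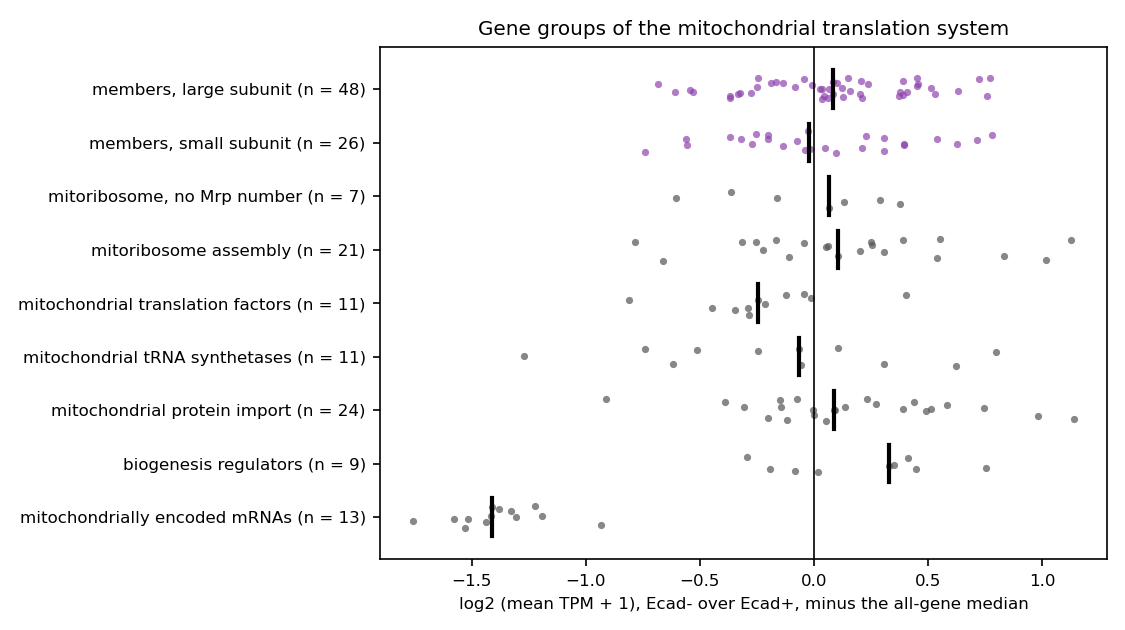
Log2 ratio of Ecad- over Ecad+ relative to the all-gene median (x axis) for genes over the floor, by group (y axis). Each point is a gene and the bar is the median of its group. The large and small subunit members lie at 0.08 and -0.02, the mitochondrially encoded mRNAs at -1.41.

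Regulators of nuclear genes for mitochondrial proteins include the factors NRF1, GABP (an ETS-family factor) and YY1, which bind many promoters of this kind. Gabpa, the DNA-binding subunit of GABP, averaged 36.2 TPM in Ecad- cells and 16.8 TPM in Ecad+ cells (1.06). Yy1 had 21.3 TPM in Ecad- cells and 13.3 TPM in Ecad+ cells (0.64), and Nrf1 had a ratio of 0.01. Of 9 listed regulators over the floor Gabpa alone was 2-fold or more higher (11.1%, against 14.2% of all genes). Above the all-gene median in each library set were 2 of 9 regulators (22.2%), against 29.5% of all genes. Promoters of 67 of the 76 protein-coding members were found in a RefSeq table on GRCm38.p6, as windows of 250 bases before to 50 bases after the start. Both strands were searched for GCATGCGC (NRF1), CCGGAAG (ETS) and AAGATGGC (YY1). Of the 67 members, 8 held the NRF1 letters (11.9%, against 3.94% of 17492 protein-coding genes), 24 the ETS letters (35.8%, against 12.9%) and 12 the YY1 letters (17.9%, against 3.57%). At least 1 of the 3 was found in 36 members (53.7%), against 18.7% of genes. The 17492 genes were not limited to the 7227 over the floor. Whether members differ in these letters from other expressed genes was not tested. Such matches are a description of letters and not of binding.

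The promoters below, 150 bases before to 30 bases after the start, belong to the members named above in which a motif fell inside this window. They are shown because the motif is what many members share, and they come from members at the top (Mrps18a, Mrps23, Mrpl9), middle (Mrpl33, Mrps21) and bottom (Mrpl34) of the ratios. Capitals mark the motifs.
Mrps18a (chr17:46110854-46111033, plus strand): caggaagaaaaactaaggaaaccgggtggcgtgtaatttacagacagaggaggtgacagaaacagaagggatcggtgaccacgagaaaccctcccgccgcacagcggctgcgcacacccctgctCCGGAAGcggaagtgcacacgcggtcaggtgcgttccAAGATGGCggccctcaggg
Mrps23 (chr11:88204238-88204417, plus strand): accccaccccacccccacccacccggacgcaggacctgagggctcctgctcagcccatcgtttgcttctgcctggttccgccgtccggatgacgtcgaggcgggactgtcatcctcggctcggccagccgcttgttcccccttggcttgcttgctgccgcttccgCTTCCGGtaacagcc
Mrpl9 (chr3:94443186-94443365, plus strand): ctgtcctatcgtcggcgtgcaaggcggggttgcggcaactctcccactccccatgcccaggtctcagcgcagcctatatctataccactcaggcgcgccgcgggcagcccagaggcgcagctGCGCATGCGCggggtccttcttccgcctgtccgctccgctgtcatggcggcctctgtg
Mrpl33 (chr5:31613801-31613980, plus strand): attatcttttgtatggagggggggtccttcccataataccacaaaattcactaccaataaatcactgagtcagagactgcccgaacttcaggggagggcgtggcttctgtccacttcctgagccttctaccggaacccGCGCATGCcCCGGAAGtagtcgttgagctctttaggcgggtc
Mrps21 (chr3:95871485-95871664, minus strand): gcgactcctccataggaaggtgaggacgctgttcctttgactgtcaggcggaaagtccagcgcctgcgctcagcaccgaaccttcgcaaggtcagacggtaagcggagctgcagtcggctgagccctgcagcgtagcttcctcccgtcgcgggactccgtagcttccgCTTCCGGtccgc
Mrpl34 (chr8:71464776-71464955, plus strand): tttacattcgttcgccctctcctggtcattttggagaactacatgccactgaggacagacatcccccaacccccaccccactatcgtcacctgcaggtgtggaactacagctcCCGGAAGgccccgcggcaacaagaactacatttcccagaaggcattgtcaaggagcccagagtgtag
In Mrps18a the ETS letters begin at -26 and the YY1 letters at 12, counted from the start at 1. In Mrpl9 the NRF1 letters stand on both strands and overlap, from -28. In Mrpl33 the NRF1 letters at -12 and the ETS letters at -3 lie side by side. Mrps23 and Mrps21 hold the ETS letters on the opposite strand after the start, at 16 and 19, and Mrpl34 holds them at -37. The ETS letters were found in 39.1% of 23 members above the all-gene median in each set and in 28.6% of 14 members below it in each set. The NRF1 letters were found in 26.1% of the members above and 14.3% of those below, and the YY1 letters in 26.1% of those above and 7.14% of those below. These are 6 against 2 and 6 against 1 members, too few to set the sides apart.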

How the data were processed

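The authors deposited 1 table of log2 values for 28987 genes and 202 libraries. They were taken as log2(TPM + 1), since back-transformed libraries had totals of 933711 to 987134. Per the submitters' processing notes, kallisto and FastQC 0.11.5 were used with mm10. How transcripts were indexed and cells filtered is not given in the sources used here. Libraries were Nextera XT on SMARTer-amplified RNA from a Fluidigm C1, per the labels, a chemistry with no molecular identifiers and no strand information.

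The log was undone for each cell, and group means, ratios and the all-gene median were computed on TPM. Without depth a level has no counting error, and a 0 says only that a gene is listed at 0. Members, lists and the 1% limit on mitochondrial share were chosen with earlier results of these data known. Genes named are the 8 most abundant members, the 8 highest and 8 lowest ratios among members on 1 side of the all-gene median in each set, members with a role of their own, and the genes with the largest ratios of each list. Members under the floor, pseudogenes and Mrpl23 were named after their values were seen. In within-set values the 5 averaged cells stay with each of their libraries. Library names also hold a number that never occurs in both groups, and the number and the sorted group cannot be told apart.

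Copies of members (at least 95% identity over 200 bases) were found with BLAST+ 2.17.0 in GENCODE M21 (also mm10). All 80 members matched it, Mrpl33 by symbol. Software was Python 3.11.15, numpy 2.4.6, pandas 2.3.3 and scipy 1.17.1. Ratios and medians were tested on simulated data. The ratios were recomputed with other averages (10% trimmed, log), with other pseudocounts (0.1, 10), with no floor or one of 50 TPM, uncentred, rescaled, with cells or library sets left out, and with sets given equal weight.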

Additional observations from a re-analysis of the deposited data

How the results depend on the processing

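The relative median of the members, 0.07, was 0.13 with a 10% trimmed mean, 0.16 with means of log values, 0.12 with a pseudocount of 10, 0.30 with no expression floor, -0.012 with a floor of 50 TPM, 0.0088 without the low-share cells, and 0.37 with no centring. It was 0.033 without library set 2, 0.076 without set 1 and 0.097 without set 3, and 0.06 to 0.08 under the other alternatives. The 24 members above the all-gene median in each set became 47 with no centring, 45 with no floor and 13 with a floor of 50 TPM, which leaves 52 members. The 17 members below it became 2 with no centring, 10 with a pseudocount of 10, 4 with no floor and 8 without the low-share cells. The log2 ratio of the summed share, 0.07, was -0.021 without the low-share cells and 0.14 without the 10% of cells with the fewest genes. The causes of these shifts were not tested. Of the 25 members chosen by rule, 17 kept the sign of their ratio under all 16 alternatives. The other 8 were Mrpl12, Mrpl18, Mrpl2, Mrpl28, Mrpl34, Mrpl41, Mrps25 and Mrps36. Means of log values moved 17 of the 25 ratios by more than the SD between sets, for example Mrpl2 from 0.41 to -0.55, Mrpl41 from 0.76 to -0.17 and Mrpl45 from 1.08 to 0.14, where the all-gene median was -0.28. Leaving out the 4 most abundant members, leaving out the pseudogenes with Mrps36, and adding pseudogene copies were chosen after seeing the data, and moved the median or share by at most the spread between sets.

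No paired analysis was possible because the numbers in the sample names only count cells, each group is 1 sample, and no result comes from a test. Unknown depth and the single line limit all values here: the spread between cells says nothing about other cultures.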
